A study of Homo sapiens with 5 samples.

Results

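The sites of RNA polymerase II, which makes the messenger RNA of protein-coding genes, were mapped by chromatin immunoprecipitation and sequencing (ChIP-seq) in untreated U2932 cells, a lymphoma line of human origin. Its peaks were called once against a rabbit IgG precipitate and once against input, the chromatin before precipitation, both from the same cell line. The results concern how far the map depends on that choice. The list called against IgG held 50161 peaks and the list called against input held 80364, together 130525 of the 1150695 peaks in the 6 lists of the series. Peaks were sorted into 3 classes by an overlap of at least 1 bp between the RNA polymerase II lists: called against both controls, called against IgG only, and called against input only. The other lists belong to antibody 1 and antibody 2, non-commercial rabbit polyclonal antibodies that both target the PR domain protein PRDM11. Cross-linked, sonicated chromatin was used throughout, and each antibody and each control is represented by 1 library.

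RNA polymerase II is known to gather where transcription starts, to pause a short way downstream, and to spread over the bodies of highly transcribed genes, so a called peak may be a short promoter site or a long domain. A peak caller compares the ChIP library with a control at each place. Input carries the uneven yield of chromatin and the copy number of each region, whereas an IgG precipitate also carries what sticks to beads and antibody without specificity and often holds fewer distinct fragments.

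The lists give intervals on the human build hg19 and no scores, so read depth is unknown and no peak could be ranked by signal. No library was repeated: no error between replicates exists, no test between controls was possible, and no p-value is given. Intervals in brackets are exact (Clopper-Pearson) 95% binomial intervals over peaks. They cover only counting error and take each peak as independent. Peaks were not assigned to genes, since no annotation of build hg19 was used here, and the labelled cell type could therefore not be checked against marker genes. Positions are counted from 1.

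The IgG list was largely contained in the input list, while the reverse held for only part of the input list. Of the peaks called against IgG, 44842, or 89.4% (89.1% to 89.7%), overlapped a peak called against input, which left 5319 peaks (10.6%) called against IgG only. Of the peaks called against input, 42094, or 52.4% (52.0% to 52.7%), overlapped a peak called against IgG, which left 38270 (47.6%) called against input only. Counted in bases, 90.4% of the 17.9 Mb of the IgG list lay in input peaks and 54.4% of the 29.8 Mb of the input list lay in IgG peaks. Few peaks lay near the limit of the rule. Just inside the 1 bp limit, 18 IgG peaks and 24 input peaks were overlapped by 10 bp or less, and just outside it 11 IgG-only and 10 input-only peaks had a peak of the other list within 10 bp.

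Sites called against both controls mostly matched 1 to 1, with input peaks often somewhat wider. Of the both-control peaks of the IgG list, 97.5% matched a single input peak. In the 36789 pairs in which each peak matched 1 peak of the other list, the middles lay a median of 13.5 bp apart. The input peak was wider in 69.2% of these pairs and narrower in 26.7%, with a median difference of 20 bp and a middle range of -3 bp to 67 bp (25th to 75th percentile). Both borders were identical in 3.59% of them. At least 90% of the peak was covered by the other list for 83.4% of both-control IgG peaks and 53.2% of both-control input peaks. Fusions were more common than splits. An input peak took in 2 or more IgG peaks in 3214 cases (7.64% of both-control input peaks), and an IgG peak took in 2 or more input peaks in 1141 cases (2.54% of both-control IgG peaks).

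Many of the largest fusions lay on chromosome 18. Of the 56 input peaks that took in 5 or more IgG peaks, 24 were there. An input peak of 13693 bp at chr18:60842077-60855769 replaced 12 IgG peaks of 132 bp to 860 bp, which covered 30.1% of it. Input peaks at chr18:60778497-60789319 (10823 bp) and chr18:60789373-60797854 (8482 bp) also took in 12 IgG peaks each. The largest split in the other direction was an IgG peak of 2778 bp on chromosome 2 (chr2:55175410-55178187), which was divided into 5 input peaks of 129 bp to 1216 bp.

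Peaks called against both controls were the widest class and those called against IgG only the narrowest. The median width of both-control peaks was 266 bp in the IgG list and 318 bp in the input list. IgG-only peaks had a median of 150 bp and never exceeded 705 bp. Input-only peaks had a median of 179 bp and reached 8202 bp. The share of peaks at the minimum width of 129 bp, the shortest interval in either list, was 4.61% (4.42% to 4.81%) of both-control peaks in the IgG list, 16.4% (16.0% to 16.7%) of input-only peaks and 24.9% (23.7% to 26.1%) of IgG-only peaks. Peaks of 1000 bp or wider numbered 2082 among both-control peaks of the IgG list, 1046 among input-only peaks and 0 among IgG-only peaks.

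**Figure D1:**
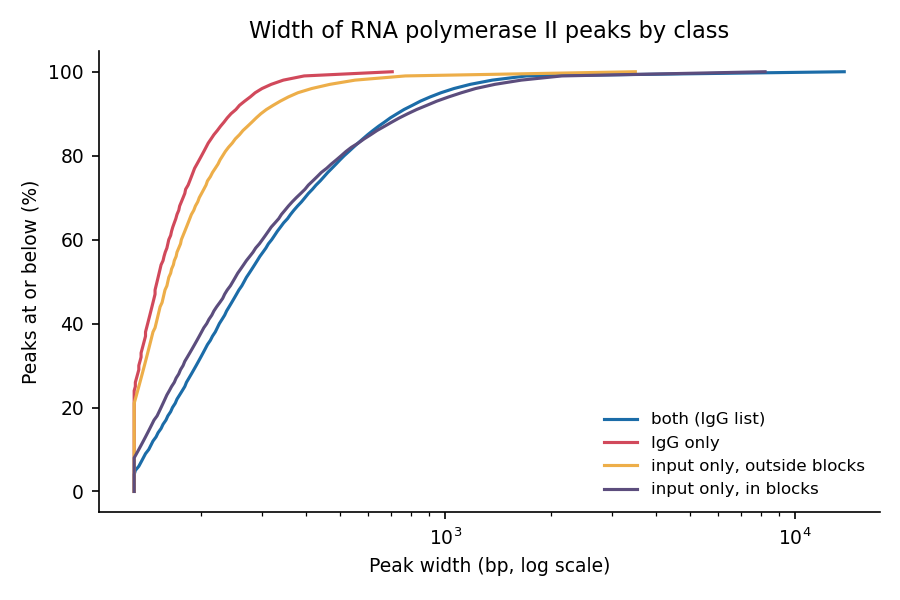
Cumulative share of peaks (y axis, %) at or below each width (x axis, bp, log scale) for both-control peaks of the IgG list, IgG-only peaks, and input-only peaks inside and outside the blocks of closely spaced input peaks described in the text. Input-only peaks in blocks (median 247 bp) run close to both-control peaks of the IgG list (266 bp), while input-only peaks outside blocks (161 bp) run close to IgG-only peaks (150 bp). Both-control peaks of the input list, which are not drawn, were wider, with a median of 318 bp overall and 726 bp in blocks.

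Blocks were defined to separate regional from scattered input-only calls. A block is a run of adjacent 1-Mb bins, each with at least 50 input-called peaks and at least 5 times the IgG-called count plus 1. Of the 2251 bins with a peak in either list, 31 met this rule (1.38%), and they joined into 9 blocks on chromosomes 1, 3, 11 and 18. The blocks spanned 31 Mb and held 14320 input-only peaks, 37.4% (36.9% to 37.9%) of the class, beside 1.46% of the IgG list. Input-only peaks in blocks had a median width of 247 bp, and 900 of them reached 1000 bp. The 23950 input-only peaks outside had a median of 161 bp, and 146 reached 1000 bp.

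Even these 146 wide peaks were not scattered. All of them lay in 1-Mb bins with 50 or more input-only peaks, and 129 lay in a single bin on chromosome 18 from 60000001 to 61000000. This bin had 918 input-called and 223 IgG-called peaks and so missed the 5-fold limit. A further 12 lay on chromosome 1 from 150000001 to 151000000 and 4 on chromosome 11 from 121000001 to 122000000.

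Wider calls more often overlapped a call against the other control, in blocks as well as outside them. A wider peak meets an overlap of 1 bp more easily, so part of this rise is set by the overlap rule. How large that part is was not tested. In the IgG list, 61.0% (59.3% to 62.6%) of peaks of 129 bp, 80.8% of those of 130 to 199 bp and 92.7% of those of 200 to 299 bp were found against input. The share was 99.8% for 500 to 999 bp, and all 2082 IgG peaks of 1000 bp or wider were found. In the input list outside blocks, the share found against IgG was 13.8% (12.9% to 14.7%) at 129 bp, 68.6% at 200 to 299 bp and 95.1% at 500 to 999 bp. It did not go higher among peaks of 2000 bp or wider, at 95.1% (92.8% to 96.8%). The peaks of 1000 bp or wider not found there were the 146 described above. Of these, 129 lay in the chromosome 18 bin that missed the block rule, so the level at these widths is largely that of a few bins. The block rule selects bins with few IgG-called peaks for each input-called one, so low shares of input peaks found there are set by the rule and are given as a description. In blocks, 0 of 1168 input peaks of 129 bp (exact upper bound 0.315%) were found against IgG, as were 1.41% at 200 to 299 bp, 7.36% at 500 to 999 bp and 30% (24.4% to 36.1%) at 2000 bp or wider, where there were 250. Of the 733 IgG peaks in blocks, 728 were found against input. The rule also requires many input peaks, which makes an overlap of 1 bp easier to meet, so this share too is a description.

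**Figure D2:**
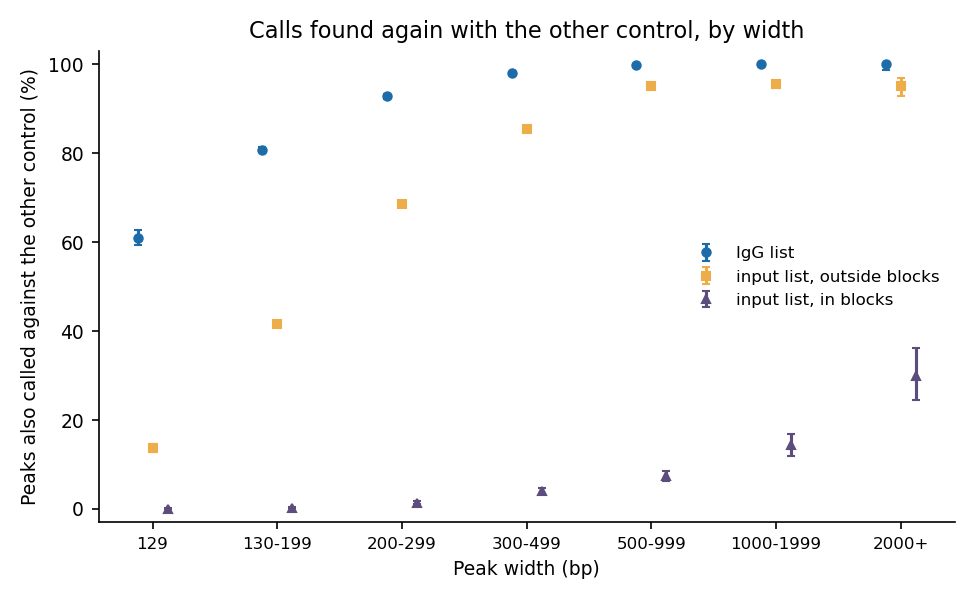
Share of peaks also called against the other control (y axis, %) by width class (x axis, bp) for the IgG list and for the input list outside and inside blocks. Points are shares and bars exact 95% intervals over peaks, some smaller than the point. The input list outside blocks includes the chromosome 18 bin that missed the block rule. The share reaches 100% in the IgG list and 95.1% in the input list outside blocks for peaks of 2000 bp or wider, against 30% in blocks, where the block rule sets a low level.

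Sites in blocks were also drawn with wider borders against input. Among the 417 pairs of 1 IgG and 1 input peak in blocks, the input peak was wider in 97.6% (95.6% to 98.8%) of cases, and the median ratio of its width to that of the IgG peak was 2.31. Outside blocks the input peak was wider in 68.8% (68.3% to 69.3%), with a median ratio of 1.06. The median width of both-control peaks in blocks was 219.5 bp in the IgG list and 726 bp in the input list.

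The widest both-control peaks were called almost identically against either control, apart from the one on chromosome 18. The widest lay on chromosome 14 at chr14:106317108-106330916 (13809 bp), and its input peak was 13812 bp wide. The immunoglobulin heavy chain genes, which are highly transcribed in B cells, are known to lie near the end of the long arm of this chromosome, but the peak was not assigned to them here. The peaks that followed lay on chromosome 17 at chr17:74265116-74275174 (10059 bp against IgG, 10163 bp against input) and chr17:56401840-56411661 (9822 bp and 9823 bp). On chromosome 11 they lay at chr11:65266313-65275606 (9294 bp and 9349 bp) and chr11:65189993-65199272 (9280 bp and 9321 bp). The peak at chr18:60978380-60987272 was 8893 bp wide against IgG, whereas its input peak ran from 60977275 to 60991208, or 13934 bp.

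The remaining 4 of the 10 widest lay on chromosome 1 (203273075 to 203281537, 8463 bp), chromosome 6 (27857159 to 27865095, 7937 bp, and 27095951 to 27102469, 6519 bp) and chromosome 11 (118754297 to 118761824, 7528 bp). The short arm of chromosome 6 is known for its large clusters of histone genes. Every base of these 10 IgG peaks was covered by a single input peak each. None of the 10 lay in a block.

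In the input list the order of the widest peaks was different. Of its 10 widest peaks, 8 lay on chromosome 18, led by chr18:60817128-60831833 (14706 bp), in which 8 IgG peaks covered 67.4%. The exceptions were the chromosome 14 peak and a peak on chromosome 22 at chr22:23221400-23232222 (10823 bp), of which IgG peaks covered 99.0%.

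The 10 widest input-only peaks all lay on chromosome 18, in the block from 51000001 to 60000000, and were 5028 bp to 8202 bp wide. The widest was chr18:56795741-56803942 (8202 bp), whose nearest IgG peak was 2654 bp away. It was followed by chr18:56937546-56945116 (7571 bp), 42863 bp from the nearest IgG peak, and chr18:56929978-56936500 (6523 bp), 51479 bp away. Each of the 10 had another input peak within 217 bp.

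The 10 widest IgG-only peaks were 553 bp to 705 bp wide and were spread over 7 chromosomes. The widest were chr1:32370483-32371187 (705 bp) and chr2:61411794-61412483 (690 bp). Their nearest input peaks lay 2111 bp and 2829 bp away. Over all 10 this distance ran from 155 bp to 4636 bp, so each stood near a called input peak without touching it.

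Among the 3 classes, the median gap to the nearest peak of the same list was widest for IgG-only peaks. Gaps beyond 50000 bp were more frequent among both-control peaks of the IgG list (4.45%) than among IgG-only (3.48%) or input-only peaks (2.13%). The median gap to the nearest peak of the same list was 338 bp for both-control peaks of the IgG list, 282 bp for both-control peaks of the input list, 955 bp for IgG-only peaks and 351 bp for input-only peaks. Input-only peaks in blocks, which were selected for many input-called peaks per Mb, had a median gap of 179 bp, against 617 bp outside. The shortest gap in either list was 44 bp. A neighbour within 1000 bp in the same list was present for 68.6% of both-control peaks of the IgG list, 50.6% (49.3% to 52.0%) of IgG-only peaks, 88.3% of input-only peaks in blocks and 58.9% (58.3% to 59.5%) of input-only peaks outside.

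**Figure D3:**
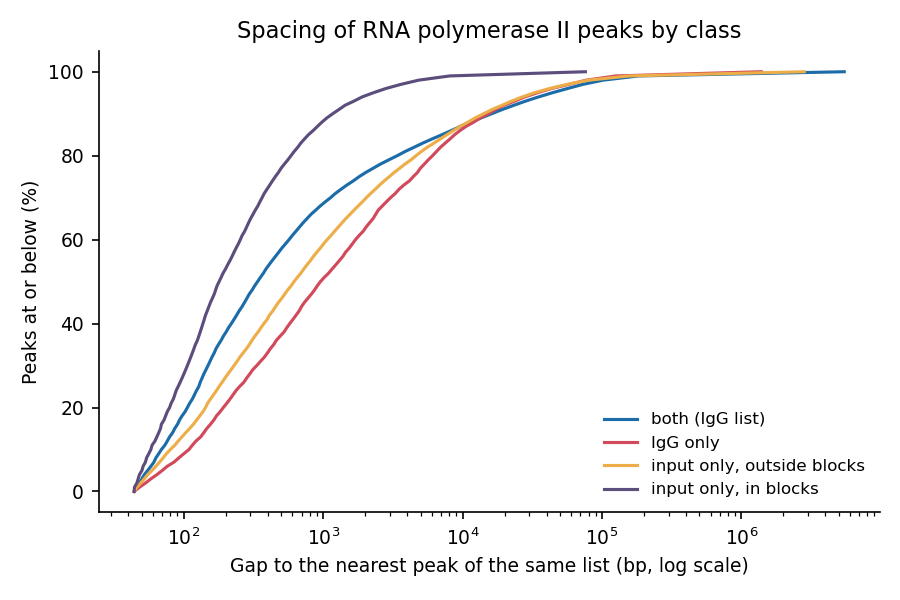
Cumulative share of peaks (y axis, %) by the gap to the nearest peak of the same list (x axis, bp, log scale) for the same classes. The curve of input-only peaks in blocks lies farthest left (median 179 bp), as the selection of dense bins sets, and that of IgG-only peaks farthest right in the middle of its range (median 955 bp).

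Part of the IgG-only peaks lay beside sites called against both controls. The median gap between an IgG-only peak and the nearest of its own class was 12473 bp, against 374 bp among both-control peaks of the IgG list. Fewer peaks bring wider gaps by themselves, so these gaps are not comparable between classes of different size. An input peak lay within 1000 bp of 52.3% (51% to 53.7%) of IgG-only peaks without touching them, and more than 50000 bp away from 2.67%. A both-control peak lay within 1000 bp of 41.7% (40.4% to 43.0%) of them in the IgG list, below the 66.2% of both-control peaks that had another of their class within this distance. Along the list, 65.3% had a both-control peak on either side, and 11.8% stood in runs of 3 or more. Both-control peaks make up 89.4% of the IgG list, so they are the most frequent neighbours of any peak in it.

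For input-only peaks the other list is the shorter one, with 50161 against 80364 peaks, so their distances to it are not comparable with those of IgG-only peaks. Outside blocks, 38.3% (37.7% to 38.9%) had an IgG peak within 1000 bp and 7.42% had none within 50000 bp, with a median distance of 1988 bp. In blocks, where the rule itself requires few IgG-called peaks, 4.56% had an IgG peak within 1000 bp and 56.8% (56.0% to 57.6%) had none within 50000 bp, with a median distance of 73433 bp.

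Peaks of 1 list were joined into domains when the gap between them was at most 1000 bp, and joined regions with at least 3 peaks were counted. The IgG list gave 4691 domains holding 43.9% of its peaks and the input list gave 7174 domains holding 53.2% of its peaks. The median domain was of similar size, with 4 peaks in either list and a span of 2180 bp against IgG and 2336 bp against input. The longest differed: 36 peaks was the most in any IgG domain, and the widest IgG domain spanned 34950 bp. In the input list 42 domains held 50 or more peaks, and the widest spanned 342988 bp.

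The domains also differed in composition, as did the lists. Both-control peaks make up 89.4% of the IgG list and 52.4% of the input list. This by itself makes domains of both-control peaks alone more frequent in the IgG list. Whether the domains differ beyond these shares was not tested. Of the IgG domains, 73.8% consisted of both-control peaks alone, 25.9% were mixed and 14 consisted of IgG-only peaks alone. Of the input domains, 26.5% consisted of both-control peaks alone, 54.9% were mixed and 1335 (18.6%) of input-only peaks alone, of which 952 lay in blocks. An input domain overlapped 82.3% (81.2% to 83.4%) of the IgG domains, and an IgG domain overlapped 51% (49.9% to 52.2%) of the input domains. That share was 59.6% outside blocks and, where the rule requires few IgG-called peaks, 4.05% (2.97% to 5.38%) in them. Of IgG-only peaks, 30.8% (29.5% to 32.0%) were part of an IgG domain, against 45.5% (45.0% to 46%) of both-control peaks in that list. Of input-only peaks, 41.0% outside blocks and 80.0% in blocks were part of an input domain, against 50.5% and 85.7% of both-control peaks of the input list.

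The IgG domains with most peaks lay on different chromosomes and were found again against input. The first, chr16:87856743-87890161, held 36 IgG peaks, all of them both-control, and 33 input peaks. The second, chr3:186729298-186754716, held 28 IgG and 20 input peaks. The third, chr18:60779979-60800491, held 28 IgG peaks in 20513 bp, where the input list had only 3 long peaks. Next were chr6:391038-418901 with 26 IgG peaks, 2 of them IgG only, and chr7:1045210-1070657 with 26 IgG peaks, 1 of them IgG only.

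All 5 input domains with most peaks lay on chromosome 18, and most of their peaks were input only. The first, chr18:59764893-59937804, held 197 input peaks, of which 190 were input only, and its peaks covered 69.7% of 172912 bp. At chr18:60744427-61087414, the widest domain of 342988 bp, 188 input peaks covered 87.1% of the span, of which 53 were both-control, and the IgG list had 196 peaks there. The domains at chr18:57793200-57940482 (162 peaks), chr18:57444737-57636906 (160 peaks) and chr18:60469237-60573418 (137 peaks) held 1, 13 and 2 both-control peaks.

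Both-control and IgG-only peaks were spread over the chromosomes, whereas input-only peaks were concentrated on chromosomes 18 and 3. Chromosome 1 held most both-control peaks of the IgG list (9.20%), followed by chromosome 19 (7.45%) and chromosome 3 (6.99%). IgG-only peaks were most frequent on chromosome 1 (8.50%), chromosome 17 (7.71%) and chromosome 16 (7.54%). Input-only peaks were most frequent on chromosome 18 (27.1%), chromosome 3 (18.9%) and chromosome 1 (7.41%). Chromosomes 18 and 3 together held 46% (45.5% to 46.5%) of input-only peaks, 9.58% (9.31% to 9.86%) of both-control peaks of the IgG list and 5.98% (5.36% to 6.65%) of IgG-only peaks.

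**Figure D4:**
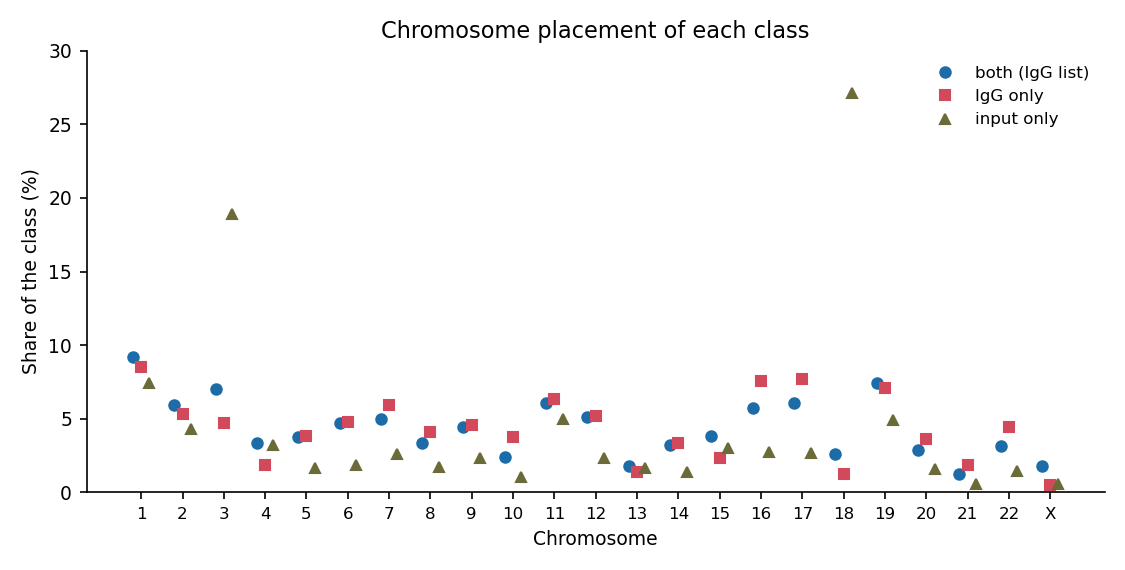
Share of each class (y axis, %) on each chromosome (x axis) for both-control peaks of the IgG list, IgG-only peaks and input-only peaks; each point is 1 class on 1 chromosome. Input-only peaks stand apart on chromosome 18 (27.1%) and chromosome 3 (18.9%).

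Per Mb, chromosome 19, known for its high gene density, was the densest for both-control peaks (56.6 per Mb, IgG list) and IgG-only peaks (6.36 per Mb). Chromosome X was the sparsest for both-control peaks (5.13 per Mb), IgG-only peaks (0.181 per Mb) and input-only peaks (1.32 per Mb). Input-only peaks were densest on chromosome 18 (133.0 per Mb). Outside blocks, chromosome 19 was densest for them too, at 31.7 per Mb. Chromosome length was taken as the last position that any of the 6 lists reaches. Over 23 chromosomes the density of IgG-only peaks followed that of both-control peaks with a Spearman's rho of 0.83 and a Pearson's r of 0.93. For input-only peaks rho was 0.77 and r was 0.17. Without chromosomes 18 and 3, rho was 0.91 and r 0.94 for IgG-only peaks, and rho was 0.83 and r 0.93 for input-only peaks. They are descriptions over chromosomes that share 1 ChIP library, its controls and their gene content, and no p-value is attached.

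The exchange between the lists differed by chromosome. The ratio of input-called to IgG-called peaks was 9.12 on chromosome 18 and 2.97 on chromosome 3, and lay between 1.14 and 1.63 on the other 21 chromosomes. Among those, chromosome 4 (1.63) and chromosome 13 (1.56) were the highest. The share of IgG peaks not found against input was lowest on chromosome X, at 3.41% (2.28% to 4.89%), and chromosome 18, at 5.53% (4.32% to 6.96%). It was highest on chromosome 10, at 15.7% (13.8% to 17.8%), and chromosome 21, at 15.1% (12.4% to 18.1%). The share of input peaks not found against IgG was lowest on chromosome X too, at 21.5% (18.9% to 24.2%), so this chromosome had the largest shared part in both directions. On chromosome 18 that share was 92.5% (92.0% to 93.0%), and outside blocks it was 71.4%. Of the 1208 input-only peaks of this chromosome outside blocks, 847 lay in the bin from 60000001 to 61000000. The 71.4% is thus not typical of the rest of the chromosome.

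Within chromosomes, input-only peaks were concentrated in few 1-Mb bins. The 64 bins with most of them held 50% of the class, whereas the same part of the both-control peaks of the IgG list took 285 bins and of the IgG-only peaks 199 bins. Most bins (72.2%) had more input-called than IgG-called peaks and 11.1% had fewer. The median bin outside blocks held 10 IgG-called and 14 input-called peaks, and the median bin in blocks 20 and 400.

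**Figure D5:**
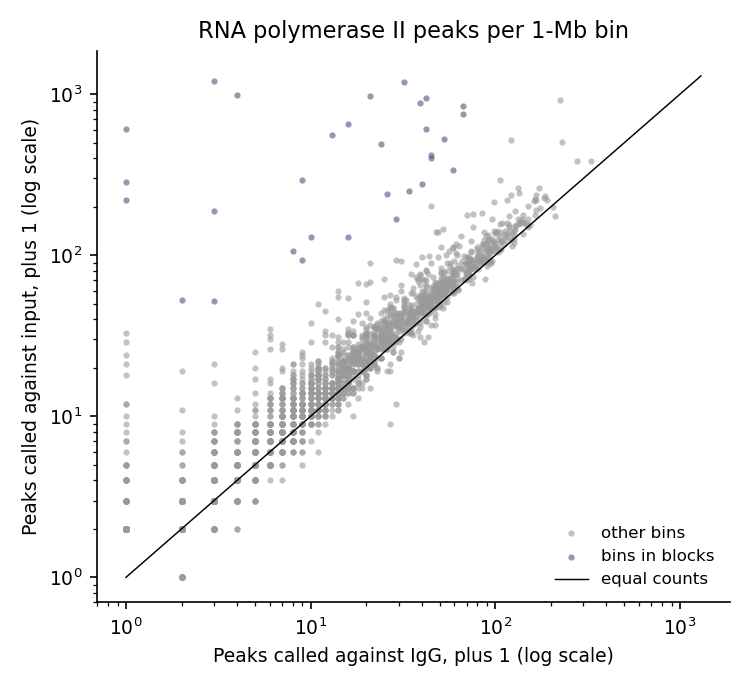
Peaks per 1-Mb bin called against IgG (x axis, count plus 1, log scale) and against input (y axis, count plus 1, log scale); each of the 2251 points is a bin and the line marks equal counts. Of all bins 72.2% lie above the line, and the 31 bins in blocks do so by their definition, with 49 to 1203 input-only peaks each.

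The densest block lay on chromosome 18 from 51000001 to 60000000. It had 815 input-called and 36.1 IgG-called peaks per Mb, and input peaks covered 44.1% of its bases. Its 7128 input-only peaks had a median width of 321 bp. Single bins reached 1205 input-called peaks beside 2 IgG-called ones, from 58000001 to 59000000. With the bin from 60000001 to 61000000 and the block of 1 Mb that follows it, this formed a continuous stretch of 11 Mb with 8804 input-called and 560 IgG-called peaks, and no IgG-only peak. Input peaks this dense make an overlap with an IgG peak more likely.

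Further blocks on the same chromosome were sparser. That from 22000001 to 26000000 had 229 input-called peaks per Mb and that from 42000001 to 46000000 had 169. The block on chromosome 3 from 86000001 to 91000000 had 613 input-called peaks per Mb and only 4.6 IgG-called ones. There 3052 of 3065 input peaks were input only, with a median width of 220.5 bp, and 3 of its 5 bins had 0 IgG-called peaks. On the same chromosome the block from 150000001 to 153000000 had 478 input-called and 39.7 IgG-called peaks per Mb.

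Antibody 1 and antibody 2 gave a readout that the classes did not use, though their lists were called against the same control libraries. Against the same control, both-control peaks of the IgG list overlapped an antibody 1 peak in 15.6% (15.2% to 15.9%) of cases and an antibody 2 peak in 27.1% (26.7% to 27.5%). IgG-only peaks did so in 3.33% (2.86% to 3.85%) and 13.3% (12.4% to 14.2%). Input-only peaks overlapped antibody 1 in 37.6% (37.1% to 38.0%) and antibody 2 in 28.3% (27.9% to 28.8%).

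For input-only peaks these shares differed by the control of the antibody list, and so did the length of the lists. Antibody 1 had 13499 peaks against IgG and 54038 against input, and antibody 2 had 465837 and 486796, so the shares for antibody 1 compare lists of unequal length. With antibody lists called against IgG, the shares of input-only peaks were 1.37% for antibody 1 and 8.64% for antibody 2. In blocks, 80.6% (79.9% to 81.2%) of input-only peaks overlapped an antibody 1 peak called against input, and 0.426% (0.326% to 0.547%) one called against IgG. For antibody 2 these shares were 47.1% and 5.13%. Both-control peaks in blocks also often overlapped antibody lists called against input. For antibody 1 the shares were 71.4% in the IgG list and 71.2% in the input list, and for antibody 2 49.3% and 61.96%. With antibody lists called against IgG they were 12.6% and 14.9% for antibody 1, and 15.5% and 23.2% for antibody 2. Outside blocks, the shares of input-only peaks against input and IgG were 11.8% and 1.93% for antibody 1, and 17.1% and 10.7% for antibody 2. In the chromosome 18 block from 51000001 to 60000000, antibody 1 gave 900.3 calls per Mb with input and 9 with IgG as the control. Antibody 2 gave 1029.9 and 89.7 there. Every ChIP library of the series thus had dense calls in this block with the same input library as the control, so these lists are not independent.

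Both-control peaks of the IgG list were compared with the same lists. With antibody lists called against input, 21.9% overlapped antibody 1 and 29.0% overlapped antibody 2. Width moved with these shares, but the classes also differed at like width. Among peaks of 200 to 299 bp, antibody 1 peaks called against IgG overlapped 10.6% (9.99% to 11.1%) of both-control peaks of the IgG list, 4.00% (2.80% to 5.51%) of IgG-only peaks and 1.38% (1.14% to 1.67%) of input-only peaks. For antibody 2 called against IgG the shares at this width were 21.0% (20.3% to 21.8%), 15.5% (13.2% to 18.1%) and 9.14% (8.51% to 9.79%). With antibody lists called against input the order at this width was different. Antibody 1 then overlapped 15.9% (15.3% to 16.6%) of both-control peaks, 1.14% (0.549% to 2.09%) of IgG-only peaks and 40.6% (39.6% to 41.7%) of input-only peaks, and antibody 2 overlapped 22.9%, 9.70% and 27.3%. Input-only peaks of this width in blocks overlapped antibody 1 called against input in 79.7% and antibody 2 in 39.2% of cases. Both-control peaks of this width in blocks did so in 68.75% and 47.7% in the IgG list. In the input list, with 46 such peaks, the shares were 36.96% and 28.3%. For input-only peaks outside blocks they were 14.0% and 19.1%. All both-control peaks of this width gave 15.9% and 22.9% in the IgG list, and 11.3% and 19.6% in the input list. For antibody 1 the order thus depended on the list that gave the widths of the both-control peaks. In what part the shared control libraries set these overlaps was not tested.

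The 1-Mb bin with most IgG-only peaks lay on chromosome 2 from 55000001 to 56000000, where 67 of 209 IgG-called peaks were IgG only and 173 peaks were called against input. The longest run of successive IgG-only peaks held 17, with a median width of 183 bp, and lay on chromosome 2 at chr2:33710258-33810446. In this stretch of 100189 bp antibody 2 had 22 peaks against IgG and 0 against input, and antibody 1 had 1 and 0. The next run held 12 peaks on chromosome 10 (chr10:72269369-72575868), where antibody 2 had 49 peaks against IgG and 26 against input. A run of 8 lay on chromosome 2 at chr2:54822679-54900967, with 10 antibody 2 peaks against IgG and 7 against input. A run of 7 at chr2:61411045-61649016 had 41 and 3, and it held the IgG-only peak of 690 bp described above. The fifth, a run of 6 on chromosome 3 (chr3:127401591-127449383), had 12 antibody 2 peaks against IgG and 13 against input. Antibody 2 has the longest lists of the series, with 465837 peaks against IgG and 486796 against input, so many stretches hold its peaks. Whether its counts in these runs exceed those of other stretches of like length was not tested.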

How the data were processed

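Peaks of the RNA polymerase II library were compared with themselves across the IgG and input controls. Build hg19 and the tools MACS2 2.0.9, Bowtie 0.12.7 and SAMtools appear in the submitters' processing notes, without order or settings. The deposited lists hold 3 columns (chromosome, start, end); the control and a q limit of 0.1 are part of each list's name. Duplicate removal and other filters are not given in the sources used here. Peaks within a list do not overlap. A low threshold or a control thin in reads changes the number of peaks.

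Samples were grouped by their labels. Peaks were placed in bins and blocks by their middles. Named were the 10 widest peaks of each class, the 5 domains with most peaks, the blocks with most input-only peaks and the 3 chromosomes with the largest share; runs of IgG-only peaks, fusions and single bins were picked after their values were seen. Members and rules were chosen with earlier results of these data known. Promoter shares and gene lists were planned but not run, since no hg19 annotation was used, and no sequence was read. Python 3.11.15, NumPy 2.4.6, pandas 2.3.3, SciPy 1.17.1 and matplotlib 3.10.9 were used. The code recovered 5 of 5 planted counts on simulated data, and 6 of 6 counts were identical to those of bedtools 2.31.1.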

Additional observations from a re-analysis of the deposited data

How the results depend on the processing

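Of 73 alternative values for 17 results, 37 stayed within the exact interval of the reported share or median, or within 1.5 times the reported count. These 37 include the limit to chromosomes 1 to 22 and X, which removed no peak, so its values could not differ. The values outside the 37 follow. A restriction to fewer peaks lowers counts by construction. Allowing 500 bp between peaks can only raise the shares found, and requiring 50% of the peak covered can only lower them. Blocks were selected for many input-called and few IgG-called peaks, so leaving them out raises the share of input peaks found. The cause of other changes was not tested. The share of IgG peaks found against input was 88.1% with at least 50% of the peak covered, 93.3% allowing 500 bp between peaks, 91.1% with both lists at 200 bp or wider and 89.0% without chromosomes 18 and 3. The share of input peaks found against IgG was 49.1%, 60.6%, 55.8% and 65.0% under these, 57.7% with peaks joined over 500 bp, 63.4% outside blocks and 65.4% outside blocks by limits of 25 peaks and 3 times. IgG-only peaks numbered 3353 allowing 500 bp, 2825 at 200 bp or wider and 3468 after joining. Input-only peaks numbered 21597 at 200 bp or wider, 20007 after joining, 23950 outside blocks, 21794 outside blocks by the looser limits and 20668 without chromosomes 18 and 3. The median width was 155 bp for IgG-only and 186 bp for input-only peaks with 50% covered, and 161 bp outside blocks and 159 bp without chromosomes 18 and 3 for input-only peaks. Chromosome 18 held 43.4% of input-only peaks of 200 bp or wider, and 45.4% of the bases of all input-only peaks. Blocks by the looser limits held 43.1% of input-only peaks. With antibody lists called against the other control, antibody 1 and antibody 2 shares were 21.9% and 29.0% for both-control peaks, 2.05% and 8.76% for IgG-only peaks and 1.37% and 8.64% for input-only peaks. For input-only peaks they were 11.8% and 17.1% outside blocks, and 10.4% and 15.8% without chromosomes 18 and 3. Domain counts stayed within 1.5 times under gaps of 500, 2000 and 5000 bp. Leaving out chromosomes 18 and 3 and the looser limits outside blocks were chosen after seeing the data. A stricter threshold and other promoter windows were not run, for lack of scores and of an hg19 annotation. No paired analysis was possible because each antibody has 1 library. Depth is unknown, so how many narrow peaks rest on few reads was not tested.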

Other observations

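Counts on chromosome 18 differed between stretches along its length. The borders of these stretches follow edges of blocks and of an empty stretch, so they depend on the same counts. From 1 to 22000000 the lists held 286 IgG-called and 370 input-called RNA polymerase II peaks. From 22000001 to 26000000 they held 86 and 915, and from 26000001 to 42000000 they held 77 and 322. In the stretch from 42000001 to 46000000 they held 85 and 675. From 46000001 to 51000000 they held 42 and 53, and in the next 11 Mb 560 and 8804. From 62000001 to 67000000 neither list had a peak. From 67000001 to 79000000 the order was turned, with 94 IgG-called and 79 input-called peaks, and 27 of the chromosome's 68 IgG-only peaks lay there.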
